A study of Mus musculus with 10 samples.

Results

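The binding of the CREB1(A297V) DNA-binding domain to DNA with and without CpG methylation was compared on 4 protein binding microarrays of a series of 10. The members were chosen by protein and probe state: 2 arrays carried probes methylated at CG (5mCG) and 2 carried unmethylated probes (C). All arrays used the same 44K Agilent design, in which a DeBruijn sequence places every short sequence in many contexts. Each array held 40330 probes with a variable region of 35 bases, and every 8-mer lay on 15 to 42 probes (median 34), which gave 32896 8-mers when both strands were counted as one.

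CREB1 is a mouse bZIP transcription factor, and the mutant carries valine in place of 1 alanine in its basic region. The GST-tagged domain was made from 180 ng of plasmid by cell-free transcription and translation, so no cell, partner protein or chromatin was present. Methylated arrays had been treated with 10 µl of M.SssI, a bacterial enzyme that methylates the cytosine of every CG, in 150 µl at 37 °C for 3 h. For comparison the series held 4 arrays of CEBPB(V285A), a C/EBP domain with the opposite substitution, in both probe states, and 2 arrays of CREB1 on unmethylated probes only. CREB1 itself was not measured on methylated probes here, so the response of the mutant could not be set against that of its parent. The labels do not say whether replicate arrays came from separate protein or methylation reactions, so p-values measure only the spread between arrays.

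bZIP proteins bind as dimers, and each subunit reads a half-site of about the same length on either side of the centre of the site. CREB proteins are known for the cAMP response element (CRE), PAR proteins for a site with T in place of G at the second base of the half-site, and C/EBP proteins for a site with a GC in the half-site. In all of these sites a CG can lie at the centre, where 5-methylcytosine places in the major groove the methyl group that thymine carries. The results turn on a few 8-mers, shown here because they are the strongest sites, their forms without CG, or those with the largest differences. Capitals mark the CG that M.SssI methylates on both strands.
CRE palindrome: tgaCGtca
PAR palindrome: ttaCGtaa
CRE-PAR site: ttaCGtca
PAR-C/EBP site: ttaCGcaa
CRE half-site joined to its form with T at the third base: tgaCGaca
PAR half-site joined to the same form: ttaCGaca
palindrome of that form: tgtCGaca
C/EBP palindrome: ttgCGcaa
PAR palindrome with the CG replaced by CA: ttacataa
CRE palindrome with the CG replaced by CA: tgacatca
highest called difference with a CG: attaCGca
highest called difference without a CG: attactca
lowest called difference: aaCGgggc
lowest called difference without a CG: ataagggg

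The ratio of signal to background was higher on the methylated arrays, which bears on every difference below. The median spot signal was 2.76 and 1.79 times its background on the unmethylated arrays and 5.09 and 5.03 times on the methylated ones. The signal itself was lower on the methylated arrays, with medians of 722 and 642 against 1470.5 and 1857 unmethylated. The median background was 140 and 127 methylated and 556 and 1110 unmethylated, and it was not subtracted in the main scores. The strongest 8-mer lay 6.92- and 6.40-fold above the array median on the unmethylated arrays and 30.5- and 48.8-fold above it on the methylated ones. Spots below their own background numbered 705 and 1229 of 40330 on the unmethylated arrays and 3 and 6 on the methylated ones. The array identifier in the file names also followed the probe state, so methylation and whatever the identifier stands for, which the labels do not say, cannot be told apart. The probes also carried a linker, of 2 kinds, and the linker in which CG was counted held 1. Whether the other kind holds a CG was not examined. Probes without a CG in the variable region can therefore still carry a methylated CG. On the methylated arrays of CREB1(A297V) every probe lay 1 row away from its place on the other 8 arrays, and probes were therefore joined by sequence.

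The measure used here is a Z-score within an array: the median over all probes that hold an 8-mer of their log2 signal relative to the surrounding spots, less the median of all 8-mers and divided by their robust SD, which comes from the median absolute deviation. Differences are methylated minus unmethylated, and limma adjusted p-values are over all 8-mers with a threshold of 0.05. CREB1(A297V) preferred the same sites in both states. Over all 8-mers the mean Z of the methylated and of the unmethylated arrays correlated with r = 0.850, a description across 8-mers that share probes. Replicate arrays correlated with r = 0.872 when unmethylated and 0.966 when methylated, and pairs of arrays of unlike state with 0.774 to 0.848. Of the 100 strongest 8-mers in each state 80 were shared, against 80 shared by the unmethylated replicates and 82 by the methylated ones. A PAR half-site core (TTAC) was present in 82 of the 100 strongest when unmethylated and in 85 when methylated, and a CG in 42 and 48. The PAR palindrome was the strongest 8-mer in both states, followed in both by the CRE-PAR site.

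**Figure D1:**
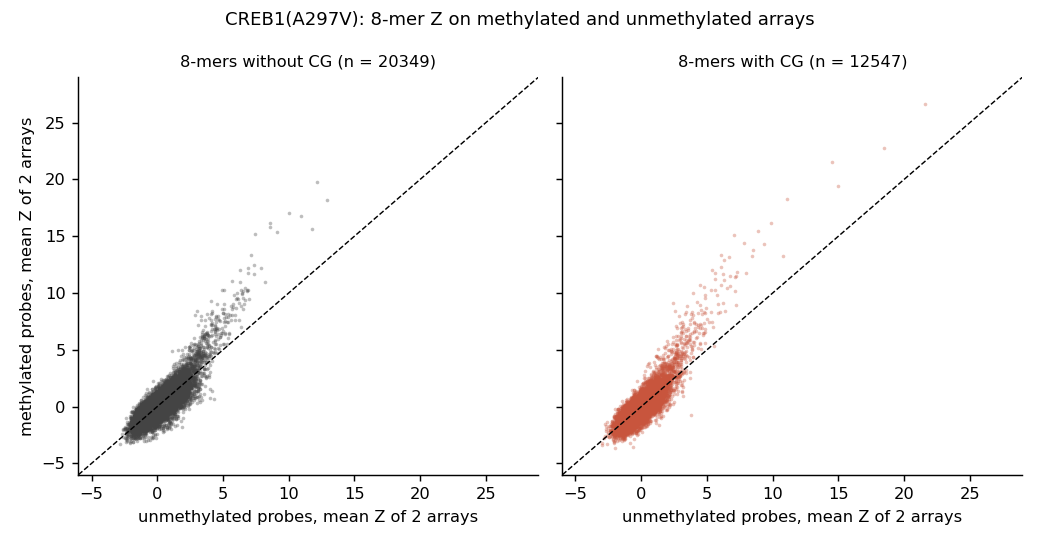
Mean Z of 2 unmethylated arrays (x axis) against mean Z of 2 methylated arrays (y axis), 1 point per 8-mer, for the 20349 8-mers without a CG (left) and the 12547 with one (right). The dashed line marks equal Z. In both panels the strongly bound 8-mers lie above the line.

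Methylated and unmethylated arrays differed at 7095 of 32896 8-mers (21.6%). Of these 3430 (10.4%) were higher and 3665 (11.1%) lower on methylated DNA. The split differed between processing settings: after normexp background correction 1827 were higher and 4272 lower, with signal over background 1231 were higher and 1467 lower, and in the authors' deposited Z-scores 1802 were higher and 1118 lower. Leaving out methylated replicate 1 reduced the count to 3146, and leaving out methylated replicate 2 reduced it to 2667. The presence of a CG did not by itself mark the 8-mers that rose. Among 20349 8-mers without a CG 2224 rose and 2186 fell, with a median difference of 0.03. Among 10762 with 1 CG 1064 rose and 1245 fell, with a median of 0.02. Among 1702 with 2 CG 141 rose and 225 fell, and of 83 with 3 or more CG 1 rose and 9 fell. For 8-mers with 1 CG, moving it from the centre to the edge left the share that rose between 9.33% and 10.6%.

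Because an 8-mer without a CG holds no complete M.SssI target among its own bases, those 8-mers served as an internal reference for the wider range of the methylated arrays. In a second scoring each array was mapped so that its 8-mers without a CG had the same distribution on every array. Flanking bases and the linker of the probes that hold such 8-mers can still carry a methylated CG. An 8-mer that ends in C or starts with G can also form a CG with the next base of the probe, so the reference is not wholly free of methylation. After mapping, 5566 8-mers differed (16.9%), 2499 of them higher (7.6%) and 3067 lower (9.32%). Both scales are given for each motif list below. Over all 8-mers, fewer rose and fewer fell when either methylated replicate was left out. A smaller motif-list count in such a fit is therefore not in itself particular to that list.

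Sites with the PAR half-site and a central CG (TTACGT on either strand, 48 8-mers) had a mean Z of 4.04 and 5.85 on the unmethylated arrays and 7.33 and 8.34 on the methylated arrays. The arrays did not overlap, and 22 of 48 8-mers rose (45.8%, against 10.4% of all 8-mers) and none fell, with a median difference of 2.46. After mapping, 1 rose (2.08%, below the 7.6% of all 8-mers) and none fell, with a median of 0.84. The count without mapping moved with single arrays. It was 0 without methylated replicate 2, 5 without methylated replicate 1, 5 without unmethylated replicate 1, 28 without unmethylated replicate 2 and 13 without any 1 of the CEBPB(V285A) arrays, which enter only through the estimate of the spread.

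The PAR palindrome had Z of 19.1 and 24.0 unmethylated and of 24.8 and 28.4 methylated. Its difference was 5.05 (SE 12.1, adjusted p = 0.802), and on the mapped scale its Z was 28.2 and 25.1 unmethylated and 20.2 and 21.0 methylated, a difference of -6.08 (adjusted p = 0.318). The arrays of each state did not overlap on either scale, but their order was opposite. By mean Z the strongest 8-mer without a CG reached 12.9 unmethylated and 19.8 methylated. The palindrome lay above both, so its mapped values come from a straight-line extension without reference 8-mers at that height. The SE draws on a fitted trend of variance with mean Z, and the prior SD from that trend was 13.99 where the palindrome's own residual SD was 2.22. Without the trend the unmapped difference had an adjusted p of 0.0287, and with the palindrome's own residual SD alone one of 0.207.

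PAR half-sites with an altered second half-site (TTACG followed by A, C or G, 144 8-mers) rose most often of the motif lists, at 75% of members. Their mean Z was 1.72 and 2.59 unmethylated and 3.91 and 4.77 methylated, without overlap. Of the 144, 108 rose and 2 fell, with a median difference of 1.97. The mapped scale gave 69 higher and 1 lower (median 1.31), against the 7.6% of all 8-mers that rose. The count of higher members ranged from 57 to 117 when 1 array was left out, with 57 without methylated replicate 2 and 72 without unmethylated replicate 1. The order of the lists changed with the setting. In a fit to the 4 CREB1(A297V) arrays alone 81 of 144 rose, beside 5 of 8 with the AP-1 core (TGACTCA) and 2156 of all 32896 8-mers. With log2 values centred on the array median 134 of 144 rose, beside 47 of 48 in the PAR list with a CG centre and 8 of 8 with the AP-1 core. Of all 32896 8-mers 4922 rose in that setting. The 8-mer attaCGca, with the largest called difference of all, went from 5.43 and 8.74 to 12.9 and 17.3 (difference 8.03, SE 1.88, adjusted p = 0.00587). Its mapped difference was 2.75 (adjusted p = 0.181).

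The 8-mer ccattaCG also holds TTACG but ends there, so it is not a member of the list above. It was chosen after its values were seen, for the largest called difference on the mapped scale among 8-mers with a CG. It rose from 1.89 and 2.96 to 8.18 and 9.98, and by 4.31 on the mapped scale (adjusted p = 0.000311). The unmethylated arrays placed it among weakly bound 8-mers at 1.23-fold over the array median, and the methylated arrays at 3.48-fold. The 8-mer cccattac, which shares most of its bases and has no CG, rose from 1.96 and 3.76 to 7.66 and 8.47, and by 3.16 on the mapped scale (adjusted p = 0.00105). Where cccattac is followed by g, the probe holds ccattaCG, and probes with and without that g were not separated. Both were picked by their differences and share most of their bases, and so probes, and their values are given as a description.

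The base before the PAR half-site separated these sites further. With A before TTACG, 16 8-mers had a mean Z of 3.85 and 5.57 unmethylated and of 8.37 and 10.1 methylated, and 15 of 16 rose. With T before it the mean Z was 1.59 and 2.13 unmethylated and 2.81 and 3.39 methylated, and 7 of 16 rose and 1 fell. With A before TTAC and no CG, 41 8-mers went from 3.75 and 5.25 to 6.27 and 7.41, and 28 rose. Of all 8-mers 10.4% rose. On the mapped scale 7 of 16 rose after A with the CG, 6 of 16 after T with the CG and 3 of 41 after A without it. None of these fell when mapped, and 7.6% of all 8-mers rose on that scale. On the mapped scale the mean difference after A was 1.62 with the CG and 0.20 without it, after C 1.08 and 0.55, after G 1.30 and 0.34, and after T 0.71 and 0.00. For each of the 4 bases the mapped mean was larger with the CG, a description across 8-mers that share probes. For the CRE half-site TGAC this held after A (0.86 with the CG and 0.47 without it), G (0.87 and 0.62) and T (0.39 and 0.08). After C it did not (0.32 and 0.46).

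PAR half-sites followed by another base in 8-mers with no CG numbered 650. Of these 240 rose (36.9%, against 10.4% of all 8-mers), 21 fell and 389 were not called, with a median of 0.77. On the mapped scale 89 rose (13.7%, against 7.6%) and 29 fell (median 0.25). The 240 became 82 without methylated replicate 2 and 126 without unmethylated replicate 1, with medians of 0.49 and 0.45, and 480 with log2 values centred on the array median but not divided by the spread. The 8-mer attactca, which holds the AP-1 core with T in place of its first G, went from 6.02 and 8.85 to 14.3 and 16.1. Its difference was 7.75 (SE 0.979, adjusted p = 5.36e-05), nearly that of attaCGca, although it holds no CG. The 8-mer ttacctaa went from 9.80 and 14.6 to 18.8 and 20.8 (difference 7.60, SE 1.67, adjusted p = 0.00400). Neither passed the test on the mapped scale, at 1.36 and 1.75. The other called 8-mers without a CG named by the rule (ttacacac, attacaaa, gtaattac, cccattac, ttactaat and ttacttaa) differed by 4.67 to 7.20, and all hold TTAC.

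**Figure D2:**
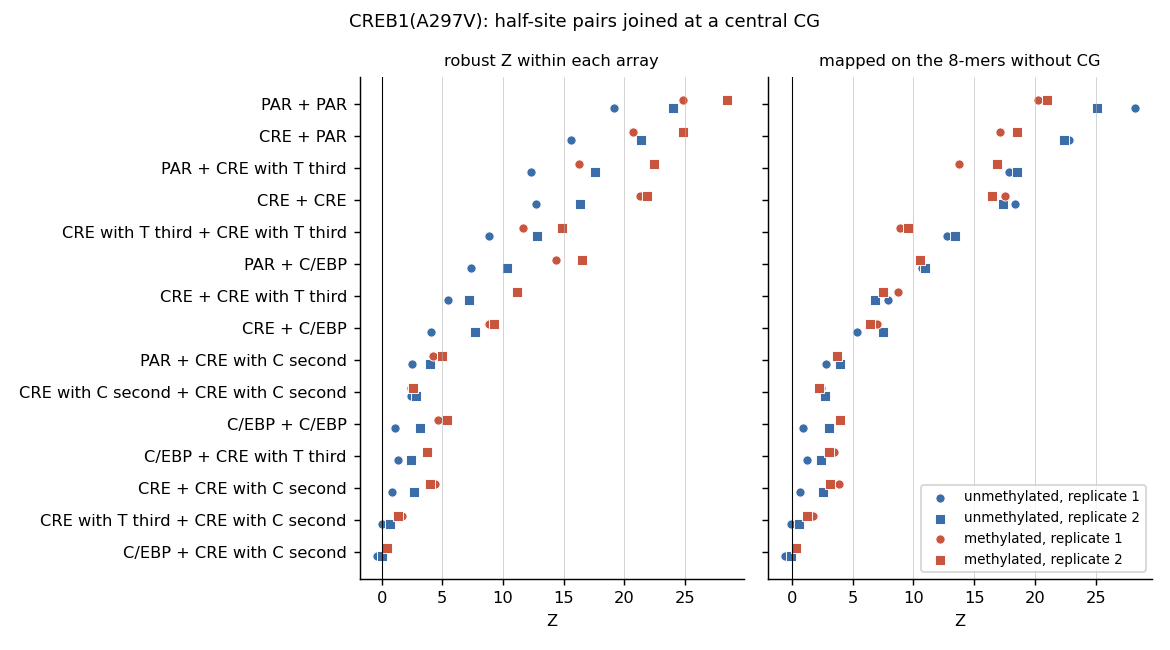
Z of the 15 pairs of half-sites joined at a central CG on each of the 4 CREB1(A297V) arrays, as the robust Z within each array (left) and after mapping on the 8-mers without a CG (right). Methylated arrays lie to the right of unmethylated ones for most pairs on the left, while on the right the PAR palindrome has 28.2 and 25.1 unmethylated and 20.2 and 21.0 methylated. By mean Z this palindrome lies above every 8-mer without a CG, so its mapped values come from a straight-line extension.

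Sites with the CRE half-site and a central CG (TGACGT, 48 8-mers) had a mean Z of 3.21 and 5.40 unmethylated and 6.87 and 5.99 methylated, again without overlap. The median difference was 1.99, but limma with the variance trend called 0 of 48, with 5 at an unadjusted p under 0.05. Without the trend 11 rose, beside 3101 of all 32896 8-mers. In a fit to the 4 CREB1(A297V) arrays alone 8 rose, beside 2156 of all 8-mers. With log2 values centred on the array median but not divided by the spread, 35 of the 48 rose, and 47 of 48 in the PAR list with a CG centre. Of all 32896 8-mers 4922 rose in that setting. With 1 array left out 0 to 3 were called and the median ran from 0.93 to 3.05. On the mapped scale 0 were called, 2 had an unadjusted p under 0.05 and the median was 0.38. The CRE palindrome went from 12.7 and 16.4 to 21.3 and 21.9, which is 3.58-fold over the array median unmethylated and 19.3-fold methylated. Its difference was 7.03 (SE 11.1, adjusted p = 0.692, or 0.00152 without the trend and 0.0649 with its own residual SD alone). On the mapped scale the difference was -0.84 (adjusted p = 0.933), where by mean Z this palindrome too lay above every 8-mer without a CG.

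The CRE-PAR site had Z of 15.6 and 21.4 unmethylated and of 20.7 and 24.9 methylated. These arrays overlapped, and the difference of 4.30 did not pass the test (adjusted p = 0.811). CRE half-sites with CG and an altered second half-site (TGACG followed by A or G, 96 8-mers) rose in 15 cases (15.6%) and fell in none (median 0.68), and on the mapped scale in 7 (7.29%, near the 7.6% of all 8-mers; median 0.64). The 15 became 4 without methylated replicate 2, 5 without methylated replicate 1, 6 without unmethylated replicate 1, 26 without unmethylated replicate 2, and 23 and 25 without CREB1 replicate 1 and 2. Among these, tgaCGaca went from 5.47 and 7.16 to 11.2 and 11.1 (difference 4.85, SE 0.972, adjusted p = 0.00214). The mapped difference was 0.71 (adjusted p = 0.617). CRE half-sites without any CG rose in 151 of 650 cases (23.2%, against 10.4% of all 8-mers) and fell in 25 (median 0.43), and after mapping rose in 101 (15.5%, against 7.6%) and fell in 19 (median 0.41). The 151 became 29 without methylated replicate 2, 51 without methylated replicate 1 and 74 without unmethylated replicate 1, and 249 with centred log2 values. The AP-1 core (8 8-mers, all also among the CRE half-sites without CG) rose in 5 of 8 cases with a median of 1.35, and in 3 on the mapped scale. The 5 became 2 without methylated replicate 2, 3 without methylated replicate 1 and 3 without unmethylated replicate 1.

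The form of the CRE half-site with T at the third base (TGTC) reached its highest Z in ttaCGaca and in its palindrome, above tgaCGaca and ttgCGaca. The palindrome went from 8.87 and 12.8 to 11.7 and 14.9, and its arrays overlapped (difference 2.43, adjusted p = 0.140). On the mapped scale it was the only one of the 15 half-site pairs called lower, by 3.85 (adjusted p = 0.00273), at 12.8 and 13.4 unmethylated and 8.87 and 9.59 methylated. Joined to the PAR half-site (ttaCGaca) it gave 12.3 and 17.5 unmethylated and 16.3 and 22.5 methylated, with overlap and an adjusted p of 0.223. Of all 256 8-mers with TGTCG, 48 rose (18.8%, against 10.4% of all 8-mers) and 6 fell (median 0.33). The 48 became 14 without methylated replicate 2, 27 without methylated replicate 1 and 30 without unmethylated replicate 1, and the median ran from 0.18 to 0.53 with 1 array left out. Fewer of all 8-mers rose in each of these fits too, so the smaller counts are not in themselves particular to TGTCG. On the mapped scale 33 rose (12.9%, against 7.6%) and 4 fell, with a median of 0.30.

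Half-sites with C at the second base (TCAC) gave an E-box when joined to themselves, the site of basic helix-loop-helix factors. That palindrome, tcaCGtga, had Z of 2.45 and 2.81 unmethylated and of 2.41 and 2.55 methylated, with overlap and a difference of -0.15 (adjusted p = 0.879). Joined to the CRE half-site (tgaCGtga) it went from 0.85 and 2.68 to 4.39 and 3.96 (adjusted p = 0.0775). With the PAR half-site (ttaCGtga) the values were 2.52 and 4.02 unmethylated and 4.26 and 5.00 methylated (adjusted p = 0.306). Joined to TGTC (tgtCGtga) it passed on both scales, from 0.05 and 0.67 to 1.70 and 1.36 (difference 1.17, adjusted p = 0.0153; mapped 1.23, adjusted p = 0.0213). The pair with the C/EBP half-site (ttgCGtga) stayed below 1 on every array. Of 26 8-mers with the E-box, 6 rose (23.1%, against 10.4% of all 8-mers) and 1 fell. The median was 0.12, but just below 0 without the local window and -0.07 without unmethylated replicate 1. The 6 became 0 without methylated replicate 2, 0 without unmethylated replicate 1 and 2 without methylated replicate 1. On the mapped scale 3 rose (11.5%, against 7.6%) and 0 fell, with a median of 0.13.

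C/EBP half-sites were bound weakly by CREB1(A297V) in both states. With a CG after the half-site (TTGCGC or TTGCGT, 96 8-mers), the mean Z was 0.54 and 0.91 unmethylated and 1.13 and 1.25 methylated, and 8 of 96 rose (8.33%, against 10.4% of all 8-mers) and 1 fell (median 0.29). With mapping 7 rose (7.29%, against 7.6%) and 1 fell. Both shares lie near those of all 8-mers, and the 8 became 2 without methylated replicate 2, 4 without methylated replicate 1 and 5 without unmethylated replicate 1. The C/EBP palindrome went from 1.08 and 3.16 to 4.61 and 5.37 (difference 2.88, SE 1.25, adjusted p = 0.107). Joined to TGTC (ttgCGaca) the half-site went from 1.33 and 2.44 to 3.83 and 3.77, and this difference passed on both scales (1.91, adjusted p = 0.00461; mapped 1.44, adjusted p = 0.0323). The PAR-C/EBP site went from 7.33 and 10.4 to 14.4 and 16.5 (adjusted p = 0.0765), with a mapped difference of -0.31 (adjusted p = 0.908). Sites joining CRE and C/EBP half-sites (TGACGC, 48 8-mers) rose in 1 case (2.08%, against 10.4% of all 8-mers), with a median of 0.93. On the mapped scale 0 rose and 0 fell, with a median of 0.75. Among these sites tgaCGcaa went from 4.05 and 7.67 to 8.86 and 9.29 (adjusted p = 0.342). C/EBP half-sites without CG rose in 90 of 629 cases (14.3%) and fell in 51, and the C/EBP-ATF composite without CG rose in 6 of 38 (15.8%), against 10.4% of all 8-mers. On the mapped scale 73 (11.6%) and 4 (10.5%) rose, against 7.6%, and 40 and 0 fell. Without methylated replicate 2 the unmapped counts of higher 8-mers were 25 and 2, without methylated replicate 1 38 and 2, and without unmethylated replicate 1 53 and 4.

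Laid out by half-site, each of the 64 possible half-sites NNNC was averaged over the 64 8-mers that carry it at a central CG. TTAC was highest in both states, with means of 2.62 and 3.81 unmethylated and 4.92 and 5.94 methylated, and its difference lay above 0 in 63 of 64 8-mers. TGAC was next, with 1.54 and 2.82 unmethylated and 3.67 and 3.40 methylated, above 0 in 61 of 64. The mean differences were 2.22 and 1.36, and 0.77 and 0.58 on the mapped scale, where both half-sites again led the order. The following mean differences, for TGTC (0.56), TTTC (0.47) and TTGC (0.42), fell to between 0.15 and 0.24 when mapped. At the other end stood CCCC, with a mean difference of -0.68, 2 of 64 higher and 30 lower.

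**Figure D3:**
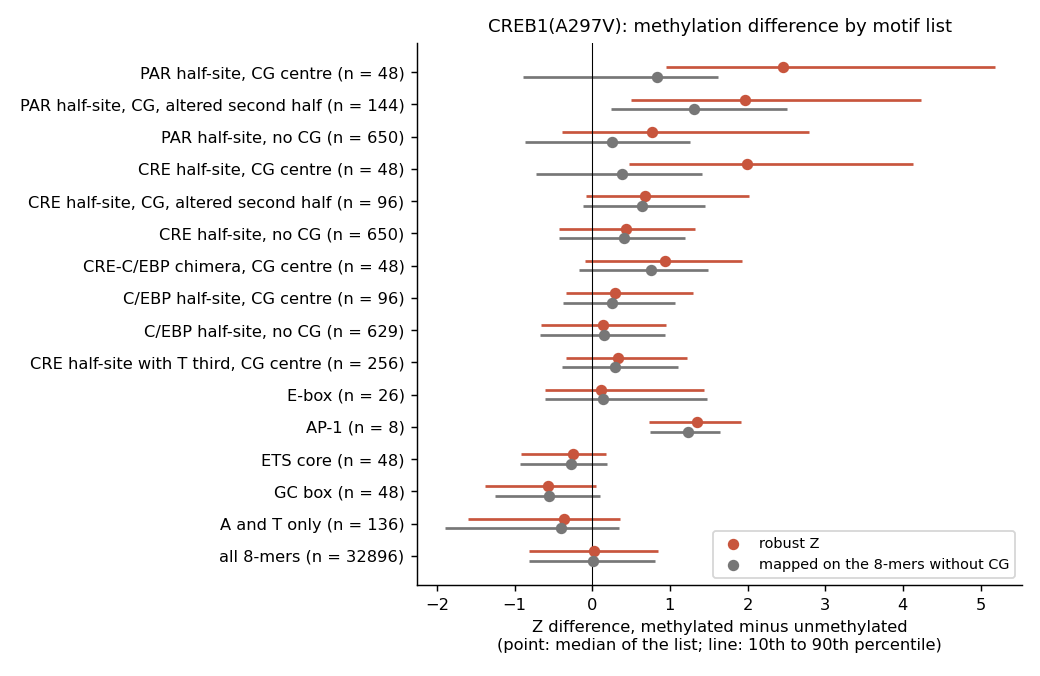
Methylated minus unmethylated Z of CREB1(A297V) (x axis) in 15 lists of 8-mers and in all 8-mers, with the median as a point and the 10th to 90th percentile as a line, for the robust Z and for the scale mapped on 8-mers without a CG. The PAR list with an altered second half-site keeps the largest mapped median, 1.31, while the PAR and CRE lists with a CG centre go from 2.46 and 1.99 to 0.84 and 0.38.

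Forms in which TG or CA stands in place of the central CG were weaker than the CG form in both states at the strong sites. For the PAR palindrome, ttacataa had Z of 10.8 and 12.8 unmethylated and 14.1 and 17.2 methylated, against 24.8 and 28.4 for the methylated CG form. For the CRE palindrome, tgacatca had 3.47 and 5.58 unmethylated and 8.63 and 9.36 methylated. It rose by 4.47 (adjusted p = 0.0313), although it has no CG, and by 1.67 on the mapped scale (adjusted p = 0.318). Replacing both bases with TA left mean Z values of 1.25 unmethylated and 1.19 methylated at the PAR palindrome, and 1.47 and 2.92 at the CRE palindrome. At the C/EBP palindrome the CA form, ttgcacaa, went from 0.03 and -0.19 to 1.41 and 2.15 (adjusted p = 0.00419). It also rose on the mapped scale, by 1.85 (adjusted p = 0.00872).

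Of the 3665 8-mers that fell, 1479 held a CG and 2186 did not. Those described here were chosen by their differences. The 8-mer aaCGgggc went from 4.13 and 3.51 to -1.10 and -0.46 (difference -4.60, SE 0.414, adjusted p = 2.68e-06). The 8-mer ataagggg went from 1.86 and 1.89 to -1.77 and -1.76 (difference -3.64, SE 0.240, adjusted p = 1.35e-07), and aaagaaag from 4.68 and 3.96 to 0.51 and 0.84. These kept their differences on the mapped scale, at -5.32, -3.64 and -4.52, each called. On the unmethylated CREB1 arrays, which carry the same identifier as the unmethylated CREB1(A297V) arrays, aaCGgggc had Z of 3.96 and 2.32, ataagggg of 0.64 and 0.71, and aaagaaag of 4.01 and 3.27. The part of whatever the identifier stands for in these differences was not tested. Of the control lists, the GC box (48 8-mers) rose in 1 case and fell in 20 (41.7%, median -0.57). The ETS core (48) rose in 1 and fell in 12 (25%, median -0.25), and 8-mers of A and T only (136) rose in 1 and fell in 27 (19.9%), beside 11.1% of all 8-mers that fell. On the mapped scale 15 (31.25%), 11 (22.9%) and 26 (19.1%) fell, beside 9.32% of all 8-mers, and 0, 0 and 1 rose. Without methylated replicate 1 the unmapped lower counts were 7, 3 and 16, without methylated replicate 2 they were 15, 3 and 14, and without unmethylated replicate 2 the GC box count was 11. The median of the last list was -0.37 but 0.03 when log2 values were not divided by the spread of the array. Of 1670 8-mers with 2 or more CG and none of the cores, 111 rose (6.65%) and 227 fell (13.6%), against 10.4% and 11.1% of all 8-mers. Without unmethylated replicate 2 of CREB1(A297V), 176 rose and 166 fell and the median turned from -0.06 to 0.08, and with 1 array left out 29 to 176 rose and 78 to 286 fell. The 29 came without methylated replicate 2 and the 78 without methylated replicate 1. On the mapped scale 88 rose (5.27%, against 7.6% of all 8-mers) and 175 fell (10.5%, against 9.32%).

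Single probes were fitted in the same way, as log2 signal relative to surrounding spots. Of 40330 probes 13409 differed (33.2%), 7603 of them higher (18.9%) and 5806 lower (14.4%). The count was 8667 without methylated replicate 1 and 7896 without methylated replicate 2, and after normexp background correction the split was 5224 higher and 7766 lower. Probes with TTACG rose in 1348 of 2388 cases (56.4%) and fell in 60, with a median difference of 0.57 log2 units. Probes with TGACG rose in 624 of 2350 cases (26.6%) and fell in 86. Probes with TTAC but neither core with CG rose in 2467 of 6220 cases (39.7%) and fell in 382. Probes with none of the TTAC, TGAC and TTGC half-sites rose in 1618 of 17957 cases (9.01%) and fell in 3609 (20.1%).

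More CG in a probe did not go with a larger difference once the half-site was given. Probes with TTACG had a median difference of 0.57 with 1 CG in the variable region, 0.61 with 2, 0.53 with 3 and 0.55 with 4 or more. Probes with a PAR half-site and no CG at all in the variable region, 903 in number, had a median difference of 0.32, and 397 of them rose. Among probes with none of the half-sites the median went from -0.03 with no CG to -0.12 with 4 or more.

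**Figure D4:**
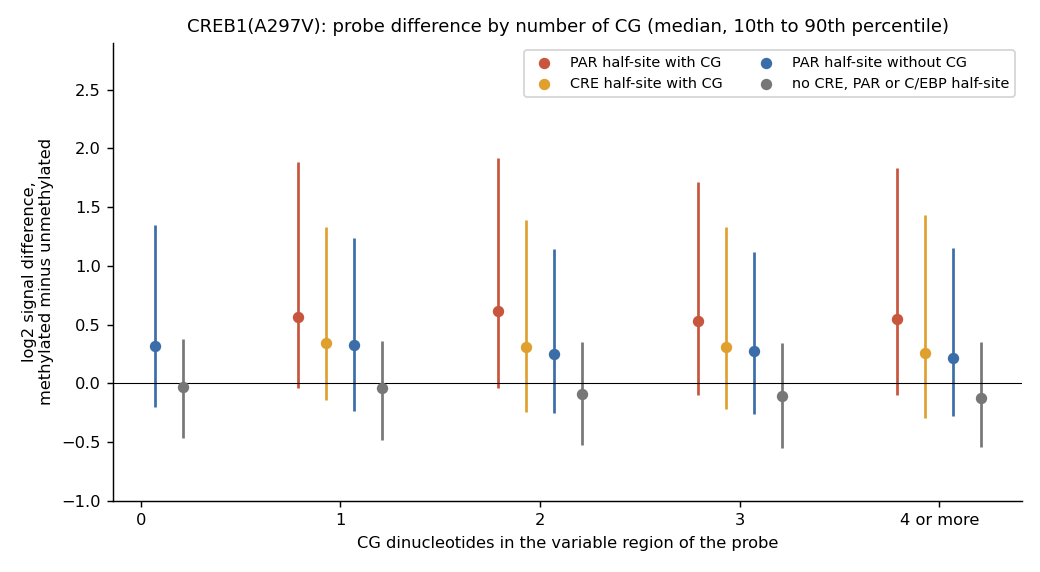
Log2 signal difference of single probes, methylated minus unmethylated (y axis), by the number of CG in the variable region (x axis), with the median as a point and the 10th to 90th percentile as a line. Probes with the PAR half-site and CG have medians between 0.53 and 0.61 at every number of CG, and probes without a CRE, PAR or C/EBP half-site have medians at or below -0.03.

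The probes with the largest called differences and those with the lowest are shown so that their bases can be read beside their signals. The strand printed is that of the design, and capitals mark CG.
probe HK22011: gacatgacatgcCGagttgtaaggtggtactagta
probe HK34916: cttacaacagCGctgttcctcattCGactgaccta
probe HK06813: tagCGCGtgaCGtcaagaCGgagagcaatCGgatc
probe HK08685: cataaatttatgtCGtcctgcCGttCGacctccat
lowest, probe HK12869: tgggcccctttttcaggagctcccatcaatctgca
lowest but one, probe HK03259: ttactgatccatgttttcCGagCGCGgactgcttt

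Probe HK22011 had 0.56 and 0.42 log2 units over its surroundings unmethylated and 4.64 and 4.43 methylated (difference 4.04, SE 0.293, adjusted p = 1.95e-05). It and HK34916 hold TTAC and TGAC without a CG next to either. HK06813 holds the CRE palindrome tgaCGtca. Its unmethylated values of 1.66 and -0.66 lay far apart before methylated values of 3.90 and 4.12 (difference 3.51, SE 0.601, adjusted p = 0.00105). HK08685 holds none of TTAC, TGAC and TTGC, but it holds TGTCG. The lowest probe, HK12869, has no CG and rests on 1 array: its signal was 1238 and 21280 unmethylated and 515 and 382 methylated. HK03259, which also holds TTAC without a CG next to it, fell from 0.94 and 2.16 to -0.27 and -0.05 (adjusted p = 0.00100).

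The response of CREB1(A297V) differed from that of CEBPB(V285A) at sites with a CRE half-site and CG. There CEBPB(V285A) had a mean Z of 13.8 and 12.5 unmethylated and 8.84 and 8.10 methylated, while CREB1(A297V) had 3.21 and 5.40 unmethylated and 6.87 and 5.99 methylated. The medians of the difference were -4.48 and 1.99. For the CRE-C/EBP chimera they were -3.03 and 0.93, and for CRE half-sites with an altered second half-site -1.22 and 0.68. For the PAR half-site with a CG centre they were -0.46 and 2.46. Tested as an interaction over all 8-mers, 1009 (3.07%) differed between the proteins, 541 (1.64%) with a more positive difference in CREB1(A297V) and 468 (1.42%) with a more negative one.

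Of the CRE list 13 of 48 were called more positive, of the chimera 21 of 48, of the CRE list with an altered second half-site 24 of 96 and of the PAR list with a CG centre 3 of 48, and none of these lists had a member called more negative. Mapped counts were 10, 26, 24 and 3. These calls rest on single arrays, however: the total was 5 without methylated CEBPB(V285A) replicate 1, 58 without its replicate 2, 7 and 262 without unmethylated CEBPB(V285A) replicate 1 and 2, and 28 and 27 without methylated CREB1(A297V) replicate 1 and 2. It was 2646 without unmethylated CREB1(A297V) replicate 2, and 1771 and 1788 without CREB1 replicate 1 and 2. The CRE count ranged from 0 to 30 over these, while the median interaction of the CRE list stayed between 5.00 and 7.17. After normexp background correction 0 of the CRE list were called and 137 8-mers in all were more positive and 811 more negative, with a median of 2.10 for the CRE list. The median of the PAR list with a CG centre was 2.59 in Z, 1.61 on the mapped scale, 5.98 with the authors' scores, 2.25 to 3.49 with 1 array left out, and -0.01 after normexp. In the authors' deposited Z-scores 496 were more positive and 106 more negative, and on the mapped scale 502 and 209. The median signal over background of the CEBPB(V285A) arrays was 3.19 and 2.50 unmethylated and 2.78 and 2.25 methylated, values that overlap between the states, unlike those of CREB1(A297V).

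**Figure D5:**
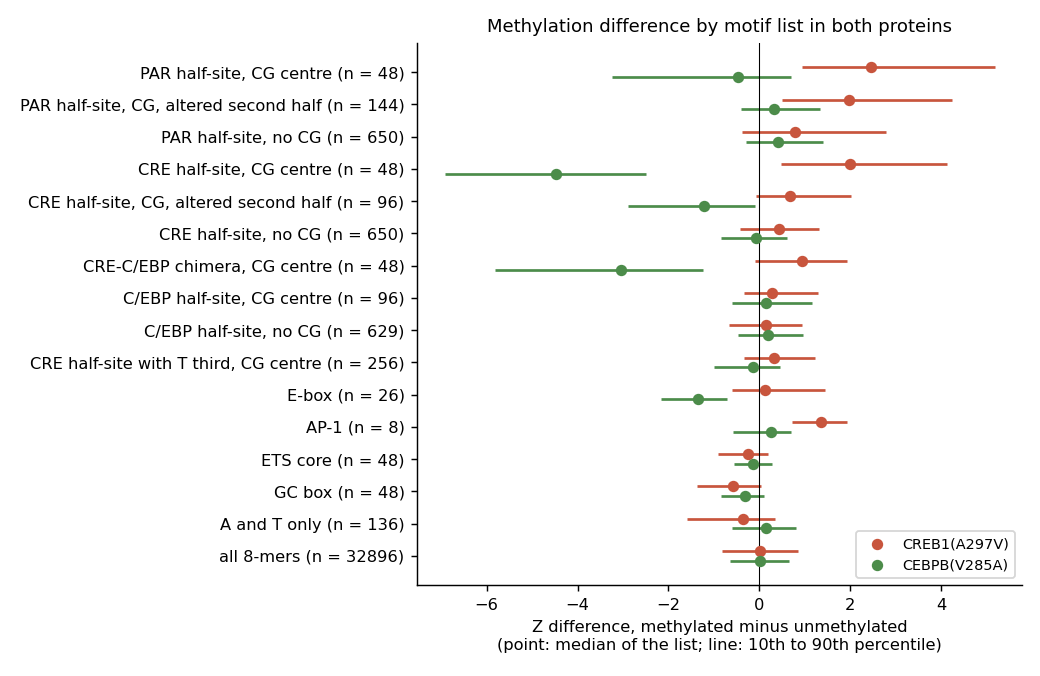
Methylated minus unmethylated Z in 16 lists of 8-mers (y axis) for CREB1(A297V) and CEBPB(V285A), with the median as a point and the 10th to 90th percentile as a line. For the CRE half-site with a CG centre the medians are 1.99 and -4.48, and for all 8-mers both lie near 0.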

How the data were processed

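For each of the 10 arrays the median signal and median background intensity of every spot were deposited, per the file headers. A deposited table also holds the authors' 8-mer scores (Z-scores), whose calculation is not given in the sources used here. The analysis started from the intensity values: log2 signal, less the median of a window of 15 by 15 spots, then the median over the probes holding an 8-mer (at least 8), then a robust Z within the array. For the mapped scale, each array was carried by its quantiles onto the mean distribution of 8-mers without CG. Values above the strongest such 8-mer of an array were placed on a straight line fitted to the top 1% of these 8-mers. Both contrasts and the interaction came from limma (version 3.58.1, R 4.3.3), with a variance trend, two-sided tests and Benjamini-Hochberg adjustment, on 5 groups of 2 arrays (5 residual degrees of freedom). The code was tested on simulated data. Named were the 15 half-site pairs with a central CG and their TG, CA and TA forms, the 8 highest and 8 lowest called differences, the same for 8-mers without CG, the 5 strongest in each state, the 5 highest and 5 lowest interactions, each skipping shared runs of 6 bases, and the 4 highest and 4 lowest probes. Some 8-mers that the rule names are not reported here. Members, lists and rules were chosen with earlier results of these data known. Only 4 arrays enter the main contrast, and their number limits the precision. Alternatives covered scaling, background, window, variance model, replicate block and single arrays; the one using each 8-mer's own residual SD was chosen after seeing the data. Same-numbered arrays are not tied by any label, and their deviations correlated with r = 0.163 between states.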

Additional observations from a re-analysis of the deposited data

Results flagged for a closer look

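The response to methylation differed between CREB1(A297V) and CEBPB(V285A) at 1009 8-mers by the interaction test, and the 10 below had the most positive or most negative interaction under the naming rule (Z units, CREB1(A297V) minus CEBPB(V285A)). The interaction was 10.9 for tgatgaCG (limma adjusted p = 0.0403), which went from 3.11 and 5.92 to 9.37 and 7.63 in CREB1(A297V) and from 17.5 and 13.6 to 8.72 and 8.63 in CEBPB(V285A). For ctaCGtag, a CG palindrome outside the CRE and PAR lists, it was 10.2 (adjusted p = 0.00286), with CEBPB(V285A) going from 13.4 and 9.55 to 2.14 and 3.98 and CREB1(A297V) from 0.90 and 0.80 to 2.65 and 2.55. It was 9.56 for tgaCGtgg, 7.71 for gcttaCGt and 7.68 for cCGtgaCG. The negative ones were -3.93 for aaCGgggc, -3.83 for aaagaaag, -3.29 for ttgcatCG, -2.88 for aacaaaaa and -2.85 for aaaaaaaa. Of these, ttgcatCG stayed near 0 in CREB1(A297V) (0.10 and 0.41, then 0.00 and -0.07) and rose from 1.06 and 0.71 to 3.57 and 4.2 in CEBPB(V285A). When 1 array was left out, the adjusted p of tgatgaCG reached 0.204, that of ctaCGtag 0.0646 and that of ttgcatCG 0.0347.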

How the results depend on the processing

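The count of 7095 8-mers was 2920 with the authors' scores, 11482 with the mean over probes, 2681 without the local window, 2698 with signal over background, 652 with only 8-mers of Z of at least 3 (fewer tested), 4605 with only the 4 CREB1(A297V) arrays (fewer samples), 2435 with each 8-mer's own residual SD, and 2667 to 8048 with 1 array left out. The 13409 probes became 5940 without the window, 5986 with signal over background and 7896 to 13490 with 1 array left out. The 1009 interactions became 602 with the authors' scores, 4758 with the mean over probes, 2677 with median-centred log2 values, 277 without the window, 325 with only 8-mers of Z of at least 3, 3 with the own residual SD, 206 with percentile ranks, 272 with signal over background, and 5 to 2646 with 1 array left out. With the replicate number as a block the counts were 7570, 13512 and 1345. The cause of these shifts was not tested beyond what the settings themselves remove. Differences that turned sign were, after mapping, tgaCGtca at -0.84, ttaCGtca at -4.78, ttaCGtaa at -6.08 (these lie by mean Z above every 8-mer without a CG), ttaCGcaa at -0.31, ttaCGaca at -2.89, tgtCGaca at -3.85 and gtaattac at -0.47. With normexp they were tgaCGtca at -0.16, ttaCGtca at -1.86, tgaCGcaa at -0.013, ttaCGtaa at -2.90, ttaCGaca at -1.32, tgtCGaca at -1.14 and ttaCGaaa at -0.0082. With quantile normalization they were ttaCGtca at -1.12, tgaCGcaa at -0.012, ttaCGaca at -1.20 and tgtCGaca at -2.83. As percentile ranks they were, in percentile points, ttaCGtca at -0.0015, ttaCGaca at -0.0046 and tgtCGaca at -0.041, while ttaCGaaa and gtaattac at -5e-05 did not differ beyond the rounding of the scores. With the mean over probes they were ttaCGtca at -0.89, ttaCGtaa at -1.09 and tcaCGtga at 0.43. The last was also 0.21 with the authors' scores, 0.16 with median-centred log2 values, 0.42 with signal over background, and -0.33 to 0.0295 with 1 array left out. Of the other values for named 8-mers, probes and lists, 744 kept direction and call, 104 lost the call, 27 gained it and 138 moved by more than the replicate spread, and with 1 array left out these were 587, 44, 6 and 72. The low signal over background of the unmethylated arrays limits what can be read of weak sites there.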
